A study of Mus musculus with 2 samples.

Results

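The genes described here are 35 members of one set: Myc and 34 genes whose products make ribosomes in the nucleolus. They were taken by name, with older symbols such as Nol5a for Nop56, from all spots of the arrays that are not controls. This gave 61 probes for the 35 genes, of 41174 distinct probes and 17685 genes tested in all. A member has 1 probe in 16 cases and several in 19. RNA of B cells sorted from peripheral lymph nodes was compared between mice with a targeted Ccr7 allele (strain B6.129P2(C)-Ccr7tm1Rfor/J) and C57BL/6J wild-type mice. Ccr7 encodes a chemokine receptor that guides lymphocytes into lymph nodes. Every cell of the mutant mice carries the allele, the cells came straight from the sorter without culture, and the labels name no treatment. There were 6 sorted samples per genotype, pooled in sets of 3. Each of 2 arrays held 1 knock-out and 1 wild-type pool in different dyes, with the knock-out in Cy5 on array 1 and in Cy3 on array 2. The array is the replicate, so n = 2, and the spread between single sorted samples was not measured.

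Ribosome biogenesis starts with transcription of the long precursor of ribosomal RNA by RNA polymerase I. Small nucleolar RNA particles then modify the precursor, box C/D particles by methylation and box H/ACA particles by pseudouridylation, while assembly factors fold and cut it into the RNA of the small and the large subunit. Myc is a transcription factor that binds DNA as a dimer with Max, prefers the E-box sequence CACGTG, and is known for driving these genes when lymphocytes are activated and grow.

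The E-box was looked for around the transcription start of the members, to show which carry the letters Myc is known to bind. RefSeq start windows (GRCm38.p6, 250 bases before to 50 after the start) were at hand for 29 of the 35 members, all but Myc, Npm1, Fbl, Bop1, Rrs1 and Rrp12. CACGTG, which reads the same on both strands, stood in the window of 7 of these 29 genes (24.1%), against 8.09% of the 27025 genes in the table. For each of the 7 genes an occurrence follows, with up to 10 bases on each side and the motif in capitals.
Imp4 (chr1:34439698-34439723, plus strand): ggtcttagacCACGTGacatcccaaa
Nop2 (chr6:125131813-125131838, plus strand): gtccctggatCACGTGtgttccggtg
Pes1 (chr11:3963967-3963992, plus strand): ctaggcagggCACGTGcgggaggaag
Wdr43 (chr17:71616222-71616247, plus strand): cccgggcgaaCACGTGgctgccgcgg
Tsr1 (chr11:74898094-74898119, plus strand): acttggtgcaCACGTGgactgcagaa
Utp20 (chr10:88826765-88826787, minus strand): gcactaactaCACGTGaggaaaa
Mybbp1a (chr11:72441357-72441376, plus strand): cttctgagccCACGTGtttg
The motif of Imp4 began 121 bases and that of Nop2 60 bases before the start, and the other 5 lay from base 3 (Pes1) to base 41 (Mybbp1a) after it. The brightest probe of each gene is used here and in the counts and medians that follow. The mean log2 ratios of knock-out over wild-type of these 7 genes lay between -0.17 (Tsr1) and -0.01 (Nop2). With the mean of all kept probes, Tsr1 had 0.01, Pes1 -0.06 and Wdr43 -0.08. Of the 7, 2 were lower in the knock-out on both arrays (30.0% of all genes) and 0 higher on both (24.2% of all genes). The median was -0.08 over the 7 and 0.08 over the 22 matched members without the motif. Whether these medians differ was not tested, and with median centring 10 of all 35 members changed sign. A match of letters is a description and shows no binding.

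No member passed the test for a difference between the genotypes. With limma on the log2 ratios and Benjamini-Hochberg adjustment over all 17685 genes, 0 of the 35 members passed an adjusted p of 0.05, against 18 genes in all (0.102%). The smallest adjusted p of a member was 0.427 and the largest 0.995. At an unadjusted p of 0.05, 2 members were higher and 1 was lower in the knock-out, where 3.15% of all genes were higher and 5.97% lower, 9.12% together. The mean log2 ratios of the members ran from -0.40 (Dkc1) to 0.40 (Nolc1), so none reached 1.5-fold, as 1.79% of all genes did. The median was -0.04 over the members and -0.01 over all genes. The median absolute log2 ratio was 0.13 for the members and 0.11 for all genes.

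How large a difference the arrays leave room for is given by the interval of each ratio. The 95% interval of the mean lay within 2-fold either way for all 35 members (98.0% of all genes) and within 1.5-fold for 29 (81.3% of all genes). Its lowest bound was -0.75 on the log2 scale, for Myc, which is 1.68-fold lower in the knock-out. Its highest bound was 0.73, for Nolc1, which is 1.66-fold higher. These limits hold with loess normalization and paired channels: the interval lay within 2-fold for 15 members with median centring, for 0 with no normalization within arrays and for 32 with separate channels. These intervals rest mainly on a spread pooled over all genes, with 6.19 prior against 1 residual degree of freedom. The p-values that miss the threshold do not show that the genotypes were equal. In sorted cells, fewer cells of a type and less RNA per cell cannot be told apart.

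**Figure D1:**
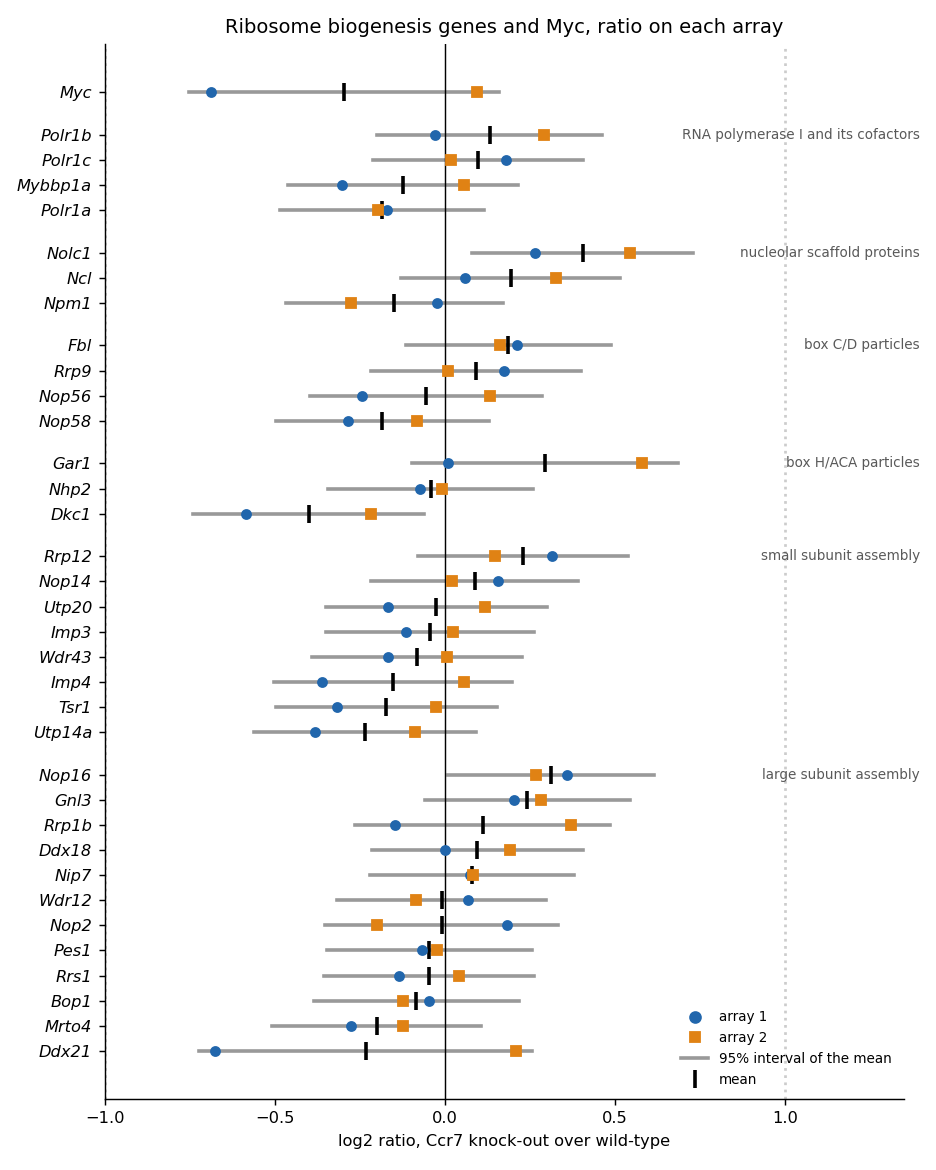
Log2 ratio of Ccr7 knock-out over wild-type for each of the 35 members, grouped by role, on array 1 (circles) and array 2 (squares), with the mean and its 95% interval from limma; dotted lines mark 2-fold. All intervals lie within 2-fold with the loess normalization drawn here, and those of Nolc1, Nop16 and Dkc1 leave out 0 before adjustment over all genes.

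All members were expressed in both genotypes. The brightest probe of each of the 35 genes was well above background in both genotypes on both arrays, as it was for 91.0% of the genes tested. All 35 genes therefore passed the filter on dim probes, which kept 17685 of 27583 genes (64.1%), and 2 dim probes (of Polr1b and Utp20) did not pass. Levels below are normalized intensities, on a linear scale after background correction and dye normalization, with array 1 given before array 2. They can be compared between genotypes on 1 array but not between probes. A channel of 6 members (Ncl, Npm1, Fbl, Nop56, Nop2 and Nip7) had been scaled up from a second scan at low gain, which holds for 9.21% of all genes. Without genes scaled up in this way, 0 of the 29 members left passed, while the count over all genes was 98, with 35 higher and 63 lower.

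**Figure D2:**
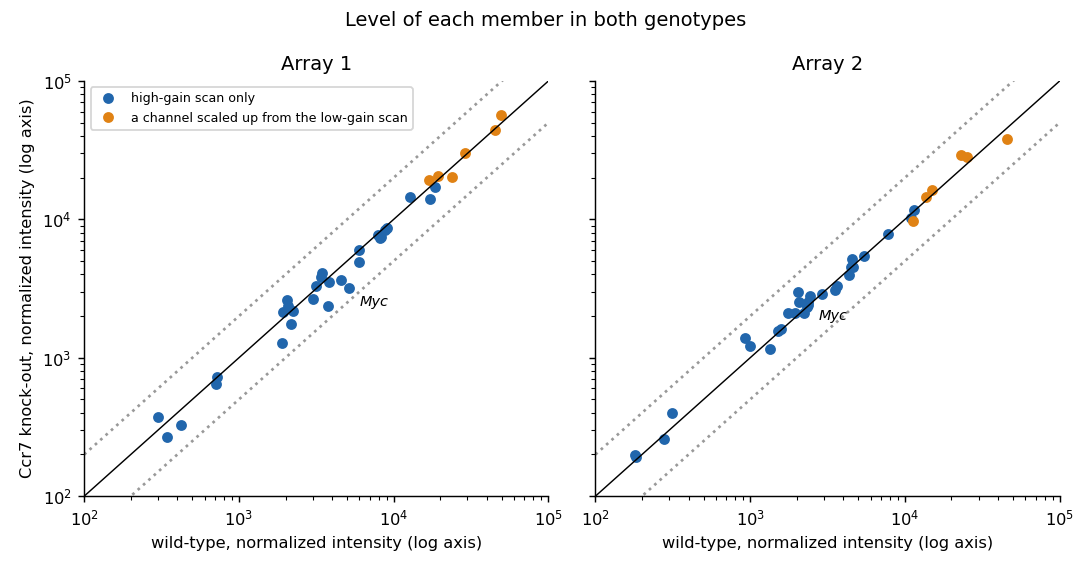
Normalized intensity of the brightest probe of each member in Ccr7 knock-out (vertical log axis) against wild-type (horizontal log axis), 1 panel per array; the solid line marks equal levels and the dotted lines 2-fold. Every member lies within 2-fold of equal on both arrays, and Myc lies below the line on array 1 and just above it on array 2.

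Myc gave different answers on the 2 arrays. Its brightest probe, at chr15:61819627-61819687 on mm8, had normalized intensities of 3180.3 and 2532 in knock-out pools, against 5122 and 2369.9 in wild-type pools. The knock-out was thus lower in the first pair of pools and level with wild-type in the second, with log2 ratios of -0.69 and 0.10. The mean was -0.30 ± 0.19 (moderated SE of limma, n = 2). Its 95% interval ran from -0.75 to 0.16, with a limma adjusted p of 0.749. Here and below, the moderated SE rests mainly on the spread pooled over all genes and is not the spread between the 2 arrays. This probe was spotted 10 times on each array. The log2 ratios of the 10 spots averaged -0.69 ± 0.02 (SD over spots) on array 1, from -0.72 to -0.64, and 0.10 ± 0.04 on array 2, from 0.03 to 0.17. All 10 spots were below 0 on array 1 and none on array 2, so the spots of one array did not overlap those of the other. Spots of 1 array share the same pools and dyes and are no biological replicates.

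The other 2 Myc probes showed the same split. They are printed because they read other stretches of the transcript.
A_52_P108346 (mm8 chr15:61819528-61819587, plus strand): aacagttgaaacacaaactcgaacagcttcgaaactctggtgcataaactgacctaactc
A_52_P278549 (mm8 chr15:61819036-61819095, plus strand): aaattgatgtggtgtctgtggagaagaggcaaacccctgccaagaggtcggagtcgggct
The first of these had intensities of 2440.1 and 2642 in knock-out pools, against 4582 and 2273 in wild-type pools. Its log2 ratios were -0.91 and 0.22. The second, which was dimmer, had 626 and 734 in knock-out pools, against 758 and 662 in wild-type pools, with log2 ratios of -0.28 and 0.15. All 3 probes were thus lower in the knock-out on array 1 and higher on array 2. The deposited value table gave -0.68 and 0.12 for the brightest probe. Array, dye and pool changed together, so which of them the split follows cannot be told apart.

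**Figure D3:**
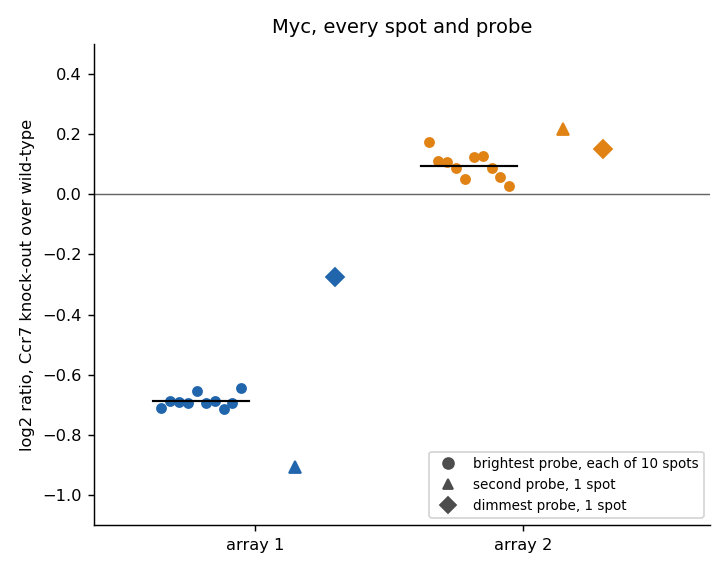
Log2 ratio of Ccr7 knock-out over wild-type for Myc on each array, with the 10 spots of the brightest probe as circles, their mean as a line, and the 2 other probes as a triangle and a diamond. Every spot and probe lies below 0 on array 1 and above 0 on array 2.

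By their brightest probes, transcripts of RNA polymerase I subunits were close between the genotypes. Polr1a, the largest subunit, had normalized intensities of 7279 and 3106 in knock-out pools, against 8190.2 and 3559.6 in wild-type pools. It was slightly lower in the knock-out on both arrays, with log2 ratios of -0.17 and -0.20 and an adjusted p of 0.766. A dimmer Polr1a probe gave -0.44 and -0.33, and the mean over both probes was -0.29 (limma adjusted p = 0.544). Polr1b, the second largest subunit, had -0.03 and 0.29, and Polr1c, which RNA polymerase III also uses, had 0.18 and 0.02. Mybbp1a, a nucleolar protein that binds Myb, had -0.30 and 0.05. Of these 4 genes 1 was lower on both arrays (30.0% of all genes), 1 higher on both (24.2%), and 2 had opposite signs (45.8%).

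Abundant nucleolar proteins pointed in different directions. Nolc1, a phosphoprotein that chaperones small nucleolar particles, had intensities of 4108 and 2971 in knock-out pools, against 3419 and 2036 in wild-type pools. It was higher in the knock-out on both arrays, at 0.40 ± 0.14 (moderated SE, n = 2) in the mean of the log2 ratios. Its adjusted p by limma, 0.427, was the smallest of all members. With median centring in place of loess the mean was 0.11, and with no normalization within arrays it was -0.11, where all genes had a median of -0.39. Its second probe pointed the other way, with -0.26 and -0.12. Nucleolin (Ncl), which binds the ribosomal RNA precursor, had 30017 and 29029 in knock-out pools, against 28789 and 23155 in wild-type pools, with log2 ratios of 0.06 and 0.33. Nucleophosmin (Npm1), a histone and ribosome assembly chaperone, had 44414 and 37855 in knock-out pools, against 45109 and 45817 in wild-type pools. Its log2 ratios were -0.02 and -0.28 by this probe and 0.39 and 0.13 by its other probe, so the probes disagreed in sign. The genome position listed for that other probe spans only 28 bases, where the probe has 60.

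The 2 brightest Ncl probes overlap on the transcript and are therefore not separate readings. They are shown with the 40 bases they share in capitals.
A_52_P623337 (mm8 chr1:88182198-88182588, minus strand): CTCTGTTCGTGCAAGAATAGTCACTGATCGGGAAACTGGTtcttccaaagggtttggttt
A_51_P134007 (mm8 chr1:88182549-88182608, minus strand): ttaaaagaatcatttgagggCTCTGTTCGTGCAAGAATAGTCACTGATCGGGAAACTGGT
The first position is longer than the 60 bases of the probe, so its match to the genome has a gap, as have those of 11 of the 61 member probes. The overlapping probe gave log2 ratios of 0.10 and 0.37, close to those of the first. Another Ncl probe gave 0.27 and 0.15. The dimmest one, at chr1:88176112-88176171 on mm8, gave -0.37 and -0.16, with the knock-out lower on both arrays. What annotation lies at these mm8 positions was not looked up, since no mm8 gene models were used here.

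Proteins of the box C/D particles had mean log2 ratios between -0.18 and 0.19 by their brightest probes. Fibrillarin (Fbl), the methyltransferase, had intensities of 57015 and 28222 in knock-out pools, against 49221 and 25221 in wild-type pools, at 0.19 on the log2 scale in the mean (limma adjusted p = 0.76). In the deposited value table Fbl had only 0.04 and 0.11. Nop56 had log2 ratios of -0.24 and 0.13 by its brightest probe and -0.87 and 0.01 by a dim second one, and the mean over both probes was -0.24. Its partner Nop58 had -0.29 and -0.08. Rrp9, a protein of the U3 particle, had 0.17 and 0.01. The knock-out was higher on both arrays for Fbl and Rrp9 (with means of -0.07 and -0.20 when arrays were only median-centred), lower on both for Nop58, and mixed for Nop56.

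In the box H/ACA particles, which pseudouridylate ribosomal RNA, the 3 proteins measured spread apart. Dkc1 (dyskerin, the pseudouridine synthase) had 1271 and 1148 in knock-out pools, against 1906 and 1334 in wild-type pools. Knock-out pools were lower on both arrays, with log2 ratios of -0.58 and -0.22. The mean was -0.40 ± 0.14 (moderated SE, n = 2), but the adjusted p was 0.458 by limma. Its second probe gave -0.50 and -0.16, in the same direction. Gar1, another core protein, had 724 and 1381 in knock-out pools, against 719 and 924 in wild-type pools, which is level on array 1 and higher in the knock-out on array 2. The mean of its log2 ratios was 0.29 ± 0.17 (moderated SE, n = 2), and limma gave 0.676 as the adjusted p. The RNA-binding core protein Nhp2 was level on both arrays, at -0.07 and -0.01.

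Factors of the small subunit lay slightly below 0 in the middle, with a median log2 ratio of -0.06 over 8 genes. Of these, 2 were higher in the knock-out on both arrays (24.2% of all genes), 2 lower on both (30.0%), and 4 had opposite signs (45.8%). Utp14a, a component of the small subunit processome, had 326 and 259 in knock-out pools, against 425 and 275 in wild-type pools, with log2 ratios of -0.38 and -0.09. Tsr1, which acts late in small subunit maturation, had -0.32 and -0.03 by its brightest probe and 0.20 and 0.20 by its second, so its probes disagreed. Rrp12, known in yeast for export of both subunits, had 375 and 198 in knock-out pools, against 302 and 179 in wild-type pools, which is a mean log2 ratio of 0.23 (0.39 in the deposited value table). The U3 particle proteins Imp3 and Imp4 had means of -0.04 and -0.15. The processome proteins Nop14, Utp20 and Wdr43 had 0.09, -0.02 and -0.08 by their brightest probes. Second probes gave means of -0.29 for Nop14 and -0.21 for Utp14a. The adjusted p of each of the 8 genes was at least 0.680.

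Among 12 factors of the large subunit, 3 were higher on both arrays (24.2% of all genes), 3 lower on both (30.0%), and 6 mixed (45.8%). Their median was -0.01. Nop16, a nucleolar protein, had 2607 and 2121 in knock-out pools, against 2033 and 1763 in wild-type pools. It was higher in the knock-out on both arrays, averaging 0.31 ± 0.13 (moderated SE, n = 2) on the log2 scale (limma adjusted p = 0.529). The mean was 0.02 with median centring and -0.20 with no normalization, while the dimmer Nop16 probe gave only 0.06 and 0.05. The nucleolar GTPase Gnl3 (nucleostemin) had 2383 and 2527 in knock-out pools, against 2068 and 2079 in wild-type pools, also higher on both arrays, with a mean of 0.24 that was -0.05 with median centring. Its adjusted p was 0.644 by limma. Pes1, Bop1 and Wdr12, which form one complex, had means of -0.05, -0.08 and -0.01 by their brightest probes. The other 2 Wdr12 probes had means of 0.21 and 0.22, which moved the mean over its probes to 0.14. The ribosomal RNA methyltransferase Nop2 had 0.18 and -0.20 on the arrays. Mrto4, a factor of the ribosomal stalk, was lower on both, with -0.28 and -0.12.

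The remaining large subunit factors were led by Ddx21, whose split resembled that of Myc. Ddx21, an RNA helicase that also acts on RNA polymerase I transcription, had 2362 and 2814 in knock-out pools, against 3772 and 2433 in wild-type pools by its brightest probe. Its log2 ratios of -0.68 and 0.21 were the farthest apart among the brightest probes, with a difference of 0.88, followed by Myc with 0.78 and Gar1 with 0.57. The second Myc probe, printed above, was farther apart still. The second Ddx21 probe gave 0.12 and -0.01 and the third -0.24 and 0.14. Ddx18, another helicase, had -0.00 and 0.19. The nucleolar protein Rrp1b had -0.15 and 0.37, with means of -0.28, 0.04 and -0.15 by its other 3 probes, and the assembly factor Rrs1 had -0.13 and 0.04. Nip7, a factor bound to the precursor, had 0.08 and 0.08, and its dim second probe, listed in the files as 6330509M23Rik, gave -0.42 and -0.03.

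The arrays gave opposite signs for 14 members (45.8% of all genes). Of the 35, 11 were higher in the knock-out on both arrays (24.2% of all genes were) and 10 were lower on both (30.0% of all genes). On array 1, 22 members were lower in the knock-out, and on array 2, 12 were, while 50.9% and 55.0% of all genes were lower. These directions depend on the dye normalization: with median centring 1 member was higher on both arrays and 13 were lower on both. The members' median was -0.07 on array 1 and 0.04 on array 2. As a description, Pearson's r between the arrays over the 35 members was 0.28 and Spearman's rho 0.30; the members share pools, dyes and slide. Of the 17 members with several kept probes, 9 had probes whose mean ratios differed in sign: Ddx21, Ncl, Nip7, Nolc1, Nop14, Npm1, Rrp1b, Tsr1 and Wdr12. The 24 probes that were not the brightest of their gene had a median log2 ratio of -0.07.

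**Figure D4:**
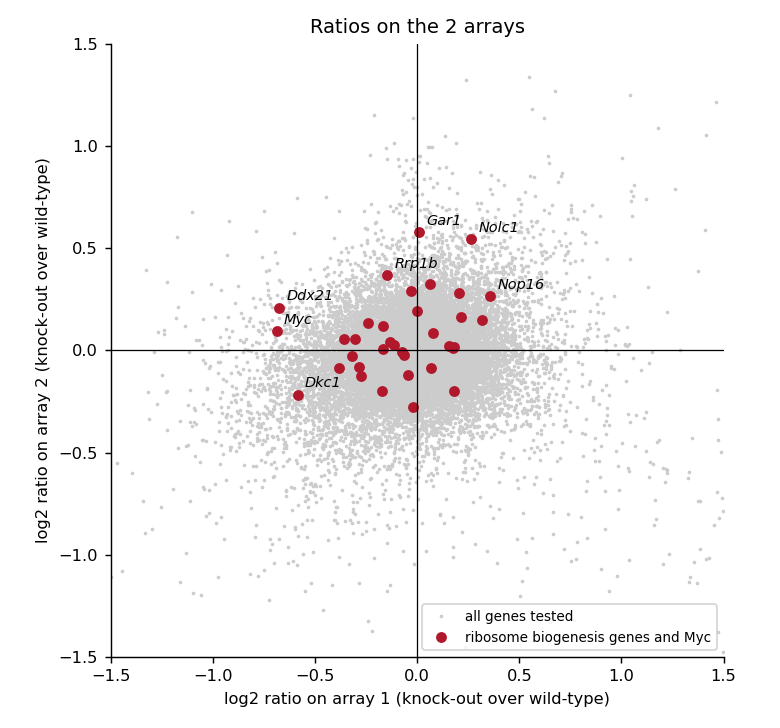
Log2 ratio of Ccr7 knock-out over wild-type on array 1 (horizontal) and array 2 (vertical), with all genes tested in grey and the 35 members in red; 76 genes beyond 1.5 on either axis are not drawn. The members sit within the cloud of all genes, with Myc and Ddx21 to the left and above 0 on array 2.

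No gene passed in the lists closest to the members, which were chosen with earlier results known. Of 95 other ribosome biogenesis factors, 91 were tested and 0 passed, with a median log2 ratio of -0.04. On both arrays 18 were higher (24.2% of all genes) and 27 lower (30.0% of all genes). The 2 with the lowest unadjusted p were Utp18, a processome protein, and Ttf1, a terminator of RNA polymerase I. Utp18 had -0.48 ± 0.13 (moderated SE, n = 2, limma adjusted p = 0.326). Ttf1 had 0.43 ± 0.13 (moderated SE, n = 2, limma adjusted p = 0.358). Of 11 Myc dimer partners and antagonists, 10 were tested and 0 passed. The antagonist Mxd4 had 1.06 and -0.04 on the arrays and Mxi1 had -0.13 and -0.47. Of 30 other textbook Myc targets 0 passed, with a median of -0.01. Nme1, a nucleoside diphosphate kinase, had 0.51 and 0.60 (limma adjusted p = 0.249), and the arginine methyltransferase Prmt1 had -0.24 and -1.33 (limma adjusted p = 0.359).

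Early response genes, a class to which Myc also belongs, were set beside them. Of 16 listed 14 were tested and 1 fell, the transcription factor Klf4, with log2 ratios of -1.53 and -1.14 (limma adjusted p = 0.049), while 11 were lower in the knock-out on both arrays (30.0% of all genes) and 3 had opposite signs. No gene of any kind passed when the scanner program's own log ratio was used. The median of the 14 genes was -0.70 on array 1 and -0.44 on array 2, where Myc had -0.69 and 0.10. Fos, part of the AP-1 transcription factor, had -1.80 and -0.84 (limma adjusted p = 0.158).

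**Figure D5:**
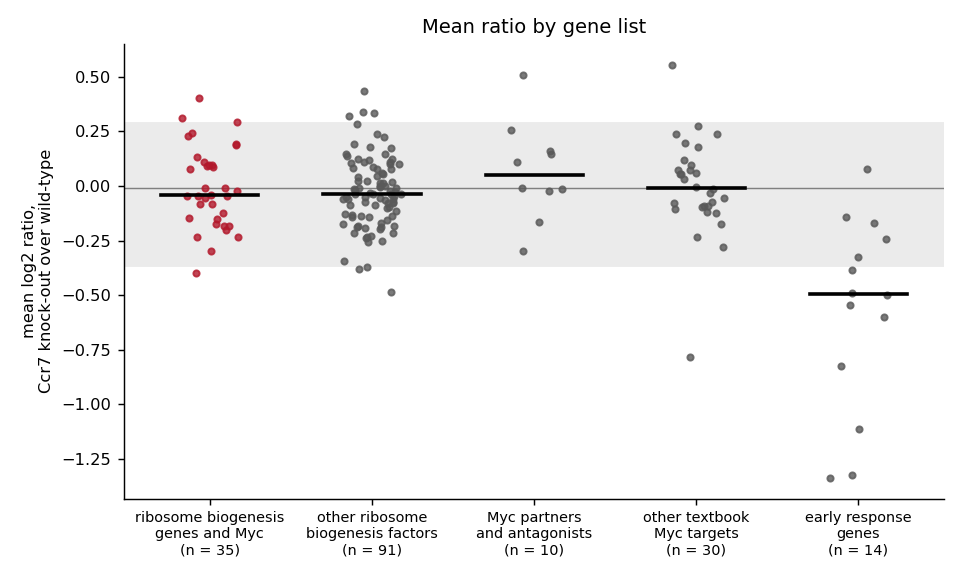
Mean log2 ratio of Ccr7 knock-out over wild-type for each tested gene of 5 lists, with the median of each list as a bar; the grey band spans percentiles 5 to 95 of all genes, from -0.37 to 0.29. The members and the other ribosome biogenesis factors centre near 0, and the early response genes centre at -0.49.

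The labels were checked on the same arrays. Ccr7 had normalized intensities of 3483 and 2575 in knock-out pools, against 7541 and 4297 in wild-type pools. Its log2 ratios were -1.11 and -0.74, with a limma adjusted p of 0.142, and whether the probe lies in the deleted part is not known here. All 10 B cell markers were well above background in all 4 channels, with summed intensities of 676705 and 371102 in knock-out pools, against 423400 and 536827 in wild-type pools. Ms4a1 and Cd79b, the brightest of them, were higher in the knock-out on array 1 and lower on array 2, opposite to Myc. Ms4a1 had 168444 and 63350 in knock-out pools, against 50043 and 148777 in wild-type pools. Cd79b had 165626 and 53808 in knock-out pools, against 60505 and 154398 in wild-type pools. The reversal of the sums followed these 2 genes. No B cell marker passed. The 2 with the lowest unadjusted p were Pax5, a B cell transcription factor, at -0.79 and -0.86 (limma adjusted p = 0.141), and the surface receptor Cd72, at 0.52 and 0.55 (limma adjusted p = 0.260).

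Markers of other cell types were read in the same way. Of the T cell markers 10 of 12 were tested, with summed intensities of 18934 and 9123 in knock-out pools, against 16626 and 8921 in wild-type pools, and most of these sums came from Lck. Their median log2 ratio was -0.01. Of the 10, 5 were lower in the knock-out on both arrays (30.0% of all genes). Another 2, Lck and Cd8b1, were higher on both (24.2%), and 3 had opposite signs (45.8%). The lowest unadjusted p were those of Thy1 and Cd3d, with means of -0.78 and -0.60, and none passed. Of 8 myeloid and dendritic cell markers 7 were tested, with sums of 12036 and 5092 in knock-out pools, against 6382 and 7672 in wild-type pools. Lyz2 alone gave 9854 and 3898 in knock-out pools, against 4221 and 5899 in wild-type pools. Adgre1 (-0.29 and -1.14) and S100a9 (0.92 and 0.00) had the lowest unadjusted p of that list.

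Plasma cell markers were the one group of markers with a gene past the threshold. Jchain rose to 1523 and 2116 in knock-out pools, against 409.8 and 642 in wild-type pools (limma adjusted p = 0.0177). Xbp1, a transcription factor of plasma cells, was higher on both arrays at 0.55 and 0.85 (limma adjusted p = 0.206). Sdc1 was lower on both at -0.13 and -1.15, as was Irf4 at -0.35 and -0.07, while Prdm1 had -0.59 and 0.10. The median log2 ratio of the 5 markers tested was -0.21. Of the 5, 2 were higher in the knock-out on both arrays (24.2% of all genes), 2 lower on both (30.0%), and 1 had opposite signs (45.8%). The sums over the 5 markers tested were 10692 and 11355 in knock-out pools, against 9103 and 7176 in wild-type pools. Natural killer cell markers (3 of 6 tested, 0 passed) summed to 551 and 351 in knock-out pools, against 659.6 and 469 in wild-type pools, and the lowest p were those of Klrd1 (-0.41 and -0.74) and Nkg7 (-0.19 and -0.32). Stroma and endothelium markers (4 of 6 tested, 0 passed) summed to 2777 and 2146 in knock-out pools, against 2895 and 2244 in wild-type pools, and the lowest p were those of Col1a2 (0.54 and 0.24) and Cdh5 (-0.38 and -0.04). The part of these other cell types in the ratios of the members was not tested.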

How the data were processed

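Both arrays were read with Agilent Feature Extraction 9.5.3.1 at 2 scanner gains, as the file headers and processing notes record, and the spot intensity values were deposited as that program wrote them. Its log10 ratio (Cy5 over Cy3, background-subtracted and dye-normalized per the file headers) stands beside them. The deposited value table holds log2 ratios, and its knock-out over wild-type direction was settled against that ratio (42512 and 42515 of 43379 spots within 0.001). The headers name mm8 and put both arrays on 1 slide.

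Background correction was by normexp (offset 50), with log2 ratios normalized by loess (span 0.3, 4 iterations), with limma 3.58.1 and R 4.3.3. The 1639 control spots had weight 0. Outlier spots were left out and spots of a probe averaged. A probe was kept where 1 genotype was well above background on both arrays, and the brightest kept probe stood for its gene. The offset shrinks ratios of dim probes. No spot was saturated, and between 58.4% and 68.8% of spots per channel were well above background. The number of arrays limits precision.

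The fit was lmFit and eBayes on ratios turned to knock-out over wild-type, with two-sided p-values. Probes were named through RefSeq accession (24375), current symbol (6301) or older symbol (2426), and 8072 kept the name in the file. The members and lists were chosen with earlier results of these data known. All 35 members are reported, and from each other list the genes that passed and the 2 with the lowest unadjusted p. The alternatives tried are listed with their effect in the closing section.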

Additional observations from a re-analysis of the deposited data

How the results depend on the processing

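The count of members past the threshold was 0 in all 13 other settings of the fit, with a smallest adjusted p from limma between 0.259 (without genes that have a low-gain channel, 29 members) and 1 (median centring, and separate channels with no replicate block). The ratio within an array pairs its pools, so the fit on separate channels with no replicate block is the unpaired one. The 12 higher and 6 lower genes over all genes became 0 and 0 with the scanner program's log ratio, the deposited value table, no normalization within arrays, no background subtraction, the mean of all kept probes, and separate channels with no replicate block. They became 3 and 1 with median centring, 26 and 47 with an intensity trend and robust prior, and 35 and 63 without the low-gain genes. The lower count was 14 with a normexp offset of 0, 0 where all 4 channels had to be above background, and 13 with every kept probe as its own row.

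The 11 members higher on both arrays became 1 with median centring, 0 with no normalization within arrays, and 17 of 59 probes with every probe as its own row, where 18 were lower on both. The members' median of -0.04 was -0.31 with median centring and -0.53 with no normalization within arrays, where the median of all genes was -0.17 and -0.39, so relative to all genes it was -0.14 in both. The median ran from -0.066 (without replicate 2, array 1 alone) to 0.042 (without replicate 1, array 2 alone) when one replicate was left out. Among members, 10 of 35 mean ratios changed sign with median centring, 14 with no normalization within arrays and 6 with the mean of all kept probes, and 0 in the other 10 settings of the fit; none was past the threshold in any. With an intensity trend and robust prior Ccr7 had an adjusted p of 0.0123, and 0.0165 without the low-gain genes. The members' 95% intervals reached 1.68-fold lower and 1.66-fold higher with loess, but 2.69-fold lower and 1.91-fold higher with median centring, 4.11-fold lower and 2.15-fold higher with no normalization within arrays, and 2.26-fold lower and 3.40-fold higher with separate channels.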
